A study of Drosophila melanogaster with 4 samples.

Results

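The genes wingless (wg), decapentaplegic (dpp) and Notch (N) are known for patterning the imaginal discs of the fly larva, and their loci were examined here for dimethylation of lysine 79 of histone H3 (H3K79me2). A locus was taken as a fixed window on FlyBase release 5. The windows were 2L from 7.22 to 7.40 Mb for wg with its Wnt neighbours, 2L from 2.42 to 2.49 Mb for dpp, and X from 3.01 to 3.09 Mb for N. Every enriched cluster with at least 1 base in a window was taken, without regard to its score. This gave 15 of the 6126 clusters of ChIP replicate 1, 10 of the 4839 clusters of ChIP replicate 2 and 17 of the 5971 clusters of the list for the whole series. In all, 42 of 16936 clusters were members.

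Wild-type Oregon-R animals were used as larvae of the third instar, when the discs are still growing, and the mark was mapped by sequencing of immunoprecipitated chromatin (ChIP-seq). The 4 samples were 2 ChIP replicates, made with a rabbit polyclonal antibody against H3K79me2, and 2 samples of input DNA. No treatment, mutant or second stage entered the series, and the labels give neither the tissue nor the sex of the larvae. The inputs were not analysed here, and the clusters are therefore given without a background level. The lists give positions and a score but no read counts, so the depth behind a cluster is unknown. The score is the authors' own, and it was used only to rank clusters within a list. In such bulk chromatin, fewer cells with the mark and less of the mark in each cell cannot be told apart.

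The gene wg encodes a secreted Wnt ligand. In imaginal discs it is known from a stripe at the dorsoventral boundary of the wing disc, and it acts through Frizzled receptors and the β-catenin homologue armadillo. The gene dpp encodes a ligand of the bone morphogenetic protein (BMP) family, which spreads from a stripe along the anteroposterior boundary and acts through the receptors thickveins and punt and the transducer Mad. N encodes a transmembrane receptor that is cut when it binds Delta or Serrate on a neighbouring cell, and its intracellular part then acts with Suppressor of Hairless on target genes. H3K79me2, which the fly's Dot1 homologue grappa places, is best known as a mark of transcribed gene bodies.

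No gene annotation of release 5 was used here, so clusters are given by position and were not assigned to genes. Names of neighbours come from the order of protein-coding genes in a RefSeq table of Release 6, without its coordinates. In that order wg (CG4889) follows Wnt4 and CG31909 and is followed by Wnt6 and Wnt10, and Wnt10 is followed by ninaC. Wnt4, Wnt6 and Wnt10 encode further Wnt ligands. The gene dpp (CG9885) stands between CG44139 and Slh, and N (CG3936) between CG4116 and CG18508. The other genes of the Wnt, BMP and Notch pathways could not be located on release 5 and were not analysed here.

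The 3 loci differed widely in how much of them lay inside H3K79me2 clusters. The N window was covered over 42.0% of its bases in replicate 1 and 45.3% in replicate 2, against 25.9% and 24.7% of the rest of X. The dpp window was covered over 30.5% and 28.5%, against 24.0% and 23.0% of the rest of 2L. The wg window was covered over 4.74% and 6.39%, against 24.2% and 23.1% of the rest of 2L. Thus N stood above its arm, dpp a little above it and wg far below it, in each replicate.

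As a difference from the rest of the arm, the N window stood 18.3 ± 3.21 percentage points higher (SD, n = 2) and the dpp window 6.01 ± 0.708 higher (SD, n = 2). The wg window differed by -18.1 ± 1.89 percentage points (SD, n = 2). Each of these differences was larger than the spread between the replicates. With 2 replicates the exact sign-flip permutation test cannot reach 0.05, and each of the 3 differences gave its smallest two-sided p of 0.5. The sign for dpp depended on weakly scored clusters. With clusters below the median score of their list left out, dpp differed from the rest of 2L by -8.04 percentage points, while N stood 19.8 higher and wg differed by -15.5. Shortening the windows by 10 kb at each end, which took off empty bases at N, gave differences of 32.9 at N and 10.2 at dpp.

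**Figure D1:**
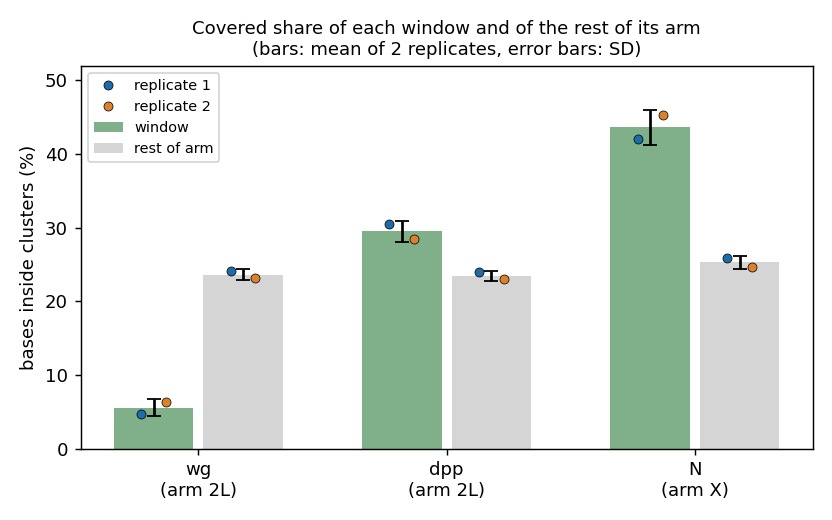
Bases inside H3K79me2 clusters, in percent, of the wg, dpp and N windows (green) and of the rest of the same arm (grey). Bars are means of the 2 ChIP replicates, error bars their SD and points the replicates; the N window sits at 42.0% and 45.3%, and the wg window at 4.74% and 6.39%.

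Between the loci, the N window exceeded the dpp window by 14.1 ± 3.74 percentage points (SD, n = 2), with 11.5 in replicate 1 and 16.8 in replicate 2. The dpp window exceeded the wg window by 23.9 ± 2.58 points (SD, n = 2), with 25.7 and 22.1. The order N, dpp, wg was therefore the same in both replicates, and neighbours in it differed by more than their spread. In the whole-series list the order held, but N and dpp were closer, at 46.0% and 41.4%, with wg at 9.69%. The exact sign-flip permutation test gave p = 0.5 for each pair, the smallest 2 replicates allow. The windows differ in length and N lies on another arm, so each was also ranked against windows of its own length on its own arm.

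Among all windows of 80001 bases on X, one starting at every base, 74.6% were covered less than the N window in replicate 1 and 79.7% in replicate 2. Among all windows of 70001 bases on 2L, 63.7% and 63.8% were covered less than the dpp window. Among all windows of 180001 bases on 2L, 14.7% and 18.9% were covered less than the wg window. None of the loci stood at an extreme of its arm. The median window was covered at 22.6% and 21.1% for the length of N, 19.1% and 17.6% for that of dpp, and 22.1% and 21.2% for that of wg. The most covered window of each length reached 97.5% and 95.4% on X, 94.9% and 98.3% at the length of dpp, and 75.6% and 73.3% at the length of wg. Windows without any cluster made up 18.1% and 19.6%, 21.9% and 22.1%, and 5.58% and 4.31% of those of the N, dpp and wg lengths. Windows of an arm overlap each other and are not replicates, so these ranks are descriptions and carry no test.

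**Figure D2:**
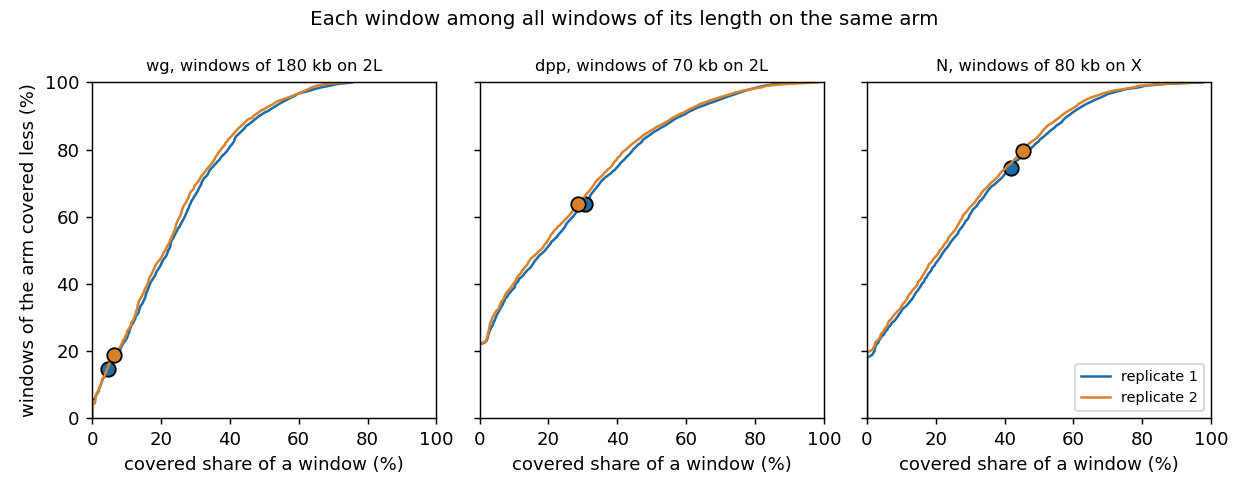
For each locus, the share of equal-length windows of the arm (vertical axis, percent) that are covered less than a given share of their bases (horizontal axis, percent), with a line for each ChIP replicate. Circles mark the locus itself, at 14.7% and 18.9% of windows for wg, 63.7% and 63.8% for dpp, and 74.6% and 79.7% for N.

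At N, which encodes the receptor, most clusters formed a block with breaks of up to 1999 bp. The median stretch without a cluster on X measured 2151 bp in replicate 1 and 3209.5 bp in replicate 2. In replicate 1 the clusters from 3028661 to 3065258 numbered 5, covered 86.3% of that stretch and were separated by 714, 1525, 762 and 1999 bp. In replicate 2 the stretch from 3028643 to 3064896 held 3 clusters, which covered 95.2% of it and were separated by 1022 and 708 bp. The whole-series list gave 3 clusters from 3028620 to 3065158, separated by 1083 and 713 bp. The left edge of the block differed by 41 bp among the 3 lists and the right edge by 362 bp. The breaks inside it differed more, since replicate 1 held 2 clusters where replicate 2 held its first and again 2 where it held its second.

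The first cluster of the block was the widest of the N window in the whole-series list and in replicate 2. It spanned 15.8 kb in replicate 2, up to 3044424, and 15.9 kb in the whole-series list, up to 3044476. In replicate 1 the widest was the second cluster, from 3033800 to 3044186, at 10.4 kb. The next of the whole-series list were 3045560 to 3056116, at 10.6 kb, and 3056830 to 3065158, at 8.33 kb. The last of these had the highest score of the window, 1.28, which was above 79% of all whole-series clusters. In replicate 1 the cluster at the same place also had the highest score, 1.54, whereas in replicate 2 the first cluster had it, with 1.45. A separate small cluster followed at 3.68 kb in replicate 1 and 4.11 kb in replicate 2, at 3068943 to 3070928 and at 3069007 to 3070703. Its score lay above 21.5% and 11.6% of the clusters of its list.

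How wide the block at N stood for its arm depended on the distance at which clusters were joined. When clusters less than 2 kb apart were counted as a single run, it measured 36.6 kb in replicate 1 and 36.3 kb in replicate 2. It then ranked 21st of 602 runs on X in replicate 1 and 17th of 549 in replicate 2, and 39th of 557 in the whole-series list. The distance of 2 kb only just held the block together in replicate 1, where a gap measured 1999 bp. With clusters less than 1 kb apart joined, the widest run at N measured 15.5 kb in replicate 1 and 19.5 kb in replicate 2. These ranked 101st of 782 and 66th of 666 runs on X. In the whole-series list it measured 19.6 kb and ranked 91st of 717.

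The clusters at N stood alone in their surroundings. To the left, the next cluster lay 162 kb away in replicate 1 and 161 kb away in replicate 2. To the right it lay 103 kb away in replicate 1, where a cluster of 1912 bp ran from 3173529 to 3175440, and 193 kb away in replicate 2. In the whole-series list the next cluster lay 161 kb away to the left and 86.8 kb away to the right. Both flanks of the same length as the window were therefore at 0 in each replicate, and in the whole-series list the right flank reached 1.39%. Of the windows of this length on X, 3.94% in replicate 1 and 4.37% in replicate 2 had both flanks at 0. Those that were also covered at least as much as the N window made up 0.535% and 0.547% and came from 6 and 5 separate places on X, N included. This count was chosen after the values were seen. The lists cannot tell a stretch without the mark from a stretch where reads could not be placed.

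**Figure D3:**
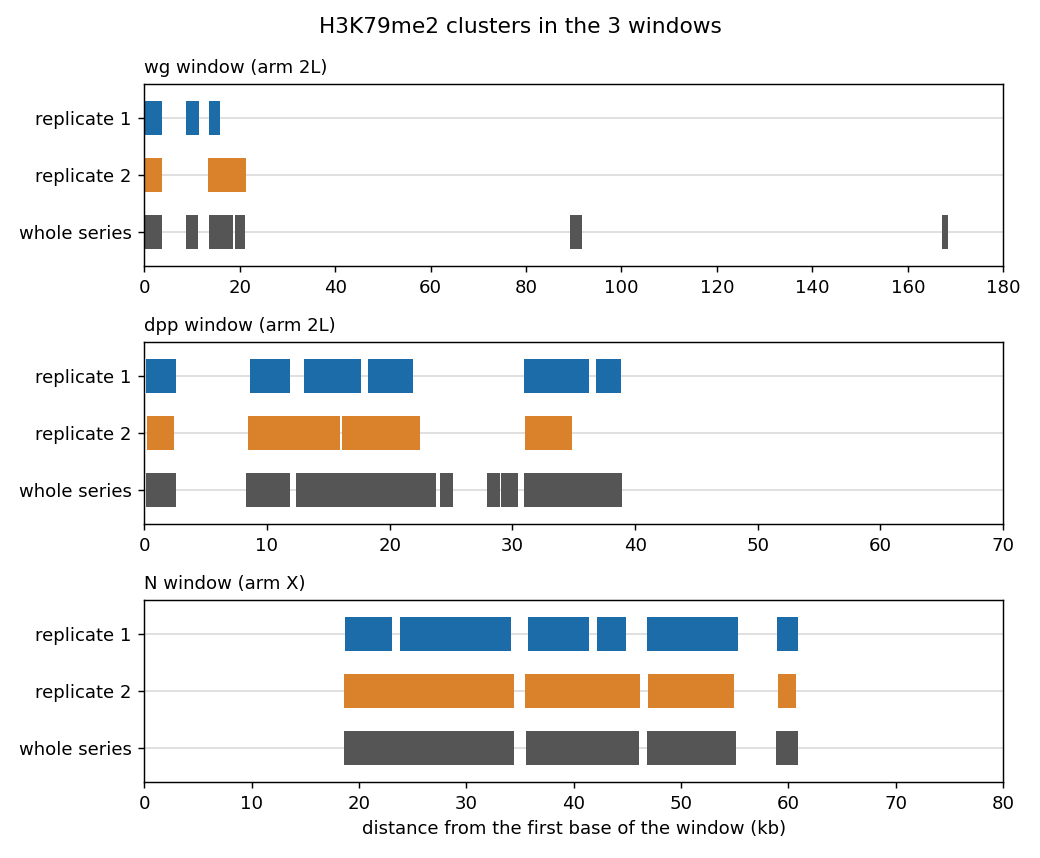
Positions of H3K79me2 clusters in the wg, dpp and N windows, as distance in kb from the first base of the window, with a line for each of the 3 lists; clusters crossing an edge are drawn up to the edge. The N block spans 36.6 kb in replicate 1 and 36.3 kb in replicate 2, the dpp clusters end at 38.9 kb in replicate 1 and 34.9 kb in replicate 2, and those at wg end at 15.8 kb and 21.2 kb.

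At dpp, which encodes the BMP ligand, the clusters fell into 3 groups in the first part of the window. The first was a single cluster. Replicate 1 had it from 2420173 to 2422569, at 2.40 kb, and replicate 2 from 2420224 to 2422447, at 2.22 kb. After 6.01 kb in replicate 1 and 6.03 kb in replicate 2 came a group from 2428583 to 2441896 in replicate 1, with 3 clusters over 13.3 kb. In replicate 2 this group ran from 2428480 to 2442481, with 2 clusters over 14.0 kb. After a further 9.01 kb and 8.54 kb the last group began, at 2450910 and 2451018. It ended at 2458857 in replicate 1 but already at 2454879 in replicate 2, which lacked the cluster of 2027 bp from 2456831 to 2458857. That cluster was the single dpp member with no base in the other replicate, and its score lay above 31.0% of replicate 1 clusters.

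In the whole-series list the same stretch held 7 clusters. The first group stood 5.73 kb from the second, while the largest gap between the second and the third was 2.79 kb. The widest ran from 2432350 to 2443794 at 11.4 kb, followed by 2450918 to 2458948 at 8.03 kb and 2428296 to 2431886 at 3.59 kb. The last of these had the highest score, 1.13, above 72.9% of the list. Clusters of 1097, 1005 and 1431 bp lay between the second and the third group and had no base in either replicate, with scores above 23.3%, 20.6% and 12.5% of the list. With them the covered share was 41.4%, against 26.5% of the rest of 2L, and 72.8% of equal windows were covered less. The widest cluster of replicate 1 was that from 2450910 to 2456280, at 5.37 kb, and that of replicate 2 the one from 2428480 to 2435950, at 7.47 kb.

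The rest of the dpp window was empty. The longest stretch without a cluster ran from 2458858 to the end of the window in replicate 1 and from 2454880 in replicate 2, or 31.1 and 35.1 kb, and from 2458949, or 31.1 kb, in the whole-series list. With clusters below the median score left out, the mean over the replicates was 56.1 kb in place of 33.1 kb. The next cluster began 390 bp beyond the window in replicate 1, at 2490390 to 2493452, and 616 bp beyond it in replicate 2, at 2490616 to 2494835. Shifting the right edge by 1 kb would therefore have brought in a further cluster, with a score of 1.55 in replicate 1 and 0.858 in replicate 2. To the left, the next cluster lay 36.9 kb before the first in replicate 1 and 37.0 kb before it in replicate 2.

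At wg, which encodes the Wnt ligand, replicate clusters lay only at the left end of the window. Replicate 1 had 7216319 to 7223688, 7228644 to 7231366 and 7233655 to 7235775. Replicate 2 had 7205874 to 7223664 and 7233386 to 7241216. The first of each list crossed the left edge. Of its 7.37 kb in replicate 1 and 17.8 kb in replicate 2, 3689 and 3665 bases lay inside the window. It was also the widest and highest-scored of the window, with 1.24 in replicate 1 and 1.41 in replicate 2. The others scored 0.675 and 0.610 in replicate 1 and 0.575 in replicate 2. The replicate 1 cluster from 7228644 had no base in replicate 2, and its score lay above 37.8% of its list.

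The remainder of the wg window was without a cluster in both replicates. The stretch ran from 7235776 in replicate 1 and from 7241217 in replicate 2 to the end of the window, or 164 and 159 kb. Of 18 bins of 10 kb, 15 were empty in both replicates, against 3 of 7 at dpp and 2 of 8 at N. The stretch continued to 7408443 in both replicates, bounded there by a cluster with a score of 0.00372 in replicate 1 and 0.205 in replicate 2. At its full length of 173 kb in replicate 1 it was the 16th longest of 1090 stretches on 2L, and at 167 kb in replicate 2 the 17th longest of 831. The median stretch on 2L measured 2361 and 4255 bp. The stretch of the same length to the right of the window was covered over 41.1% and 43.3%, and that to its left over 21.6% and 21.7%.

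The whole-series list placed 2 clusters inside this stretch that no replicate held. They ran from 7309262 to 7311742, at 2.48 kb with a score of 0.372, and from 7387132 to 7388384, at 1.25 kb with a score of 0.196. Their scores lay above 26.5% and 4.74% of the whole-series clusters. With them the longest empty stretch in that list was 75.4 kb, from 7311743 to 7387131, the 60th longest of 1041 stretches on 2L. The covered share of the window in that list was 9.69%, against 26.6% of the rest of 2L. The widest whole-series clusters of the window were 7205706 to 7223700, 7233518 to 7238636 and 7228704 to 7231358, at 18.0, 5.12 and 2.66 kb. The first of them also had the highest score, 1.34.

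Agreement of the replicates differed between the loci. Inside the N window, bases in both replicates made up 0.890 of those in either (the Jaccard index), against 0.795 over the whole of X. The dpp window gave 0.735 and the wg window 0.406, against 0.814 over the whole of 2L. In bases, the replicates shared 32.9 kb at N, 17.5 kb at dpp and 5.79 kb at wg. At wg, 5710 bases were in replicate 2 alone and 2747 in replicate 1 alone, so single clusters of a few kb decide the index there. With clusters below the median score left out, the index was 0.816 at N, 0.331 at dpp and 0.993 at wg, where the cluster at the left edge remained, so the order of the loci did not hold.

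Counted in clusters, 13 of the 15 replicate 1 members had at least 1 base in replicate 2, where 84.0% of all replicate 1 clusters did. All 10 replicate 2 members had a base in replicate 1, against 94.8% of all replicate 2 clusters. These shares were near those of the lists. Of the 17 whole-series members, 10 had a base in both replicates, against 71.0% of that list, and 5 had a base in neither, against 9.81% of it. Those 5 were the 3 between the second and the third dpp group and the 2 at wg, and the N window held none. The sources used here do not give how that list combined the replicates. Depleted clusters, taken as those not named as enriched, were absent from the windows, where a list held 14, 4 and 15 in all in replicate 1, replicate 2 and the whole series.

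In the replicates the members at N and dpp were mostly wider than the median of their arm, while in score those at dpp were mostly below it. A median by definition has as many clusters of the arm above it as below, and counts this small stand close to such an even split. At N, 4 of 6 members in replicate 1 and 3 of 4 in replicate 2 were wider than the median of X, 3572 and 3951 bp, and the same numbers scored above its median. At dpp, 4 of 6 and 3 of 4 members were wider than the median of 2L, 3178 and 3838 bp, but 2 of 6 and 1 of 4 scored above its median of 0.808 and 0.796. At wg, 1 of 3 and 2 of 2 members were wider than the median of 2L, and 1 of 3 and 1 of 2 scored above it. In the whole-series list, 3 of 4 members at N, 3 of 7 at dpp and 2 of 6 at wg were wider than the median of their arm, and 3, 2 and 1 scored above it, so most dpp members of that list were narrower. Over the 3 lists, 10 of 14, 10 of 17 and 5 of 11 were wider and 10, 5 and 3 scored higher. Members of the lists lie at the same places and are not independent of each other.

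Score was also set beside that of clusters of like width. Among clusters of the same arm and list within 25% of its width, the dpp cluster from 2436097 to 2442481 of replicate 2 scored above 5.33% of 150 clusters. In replicate 1 the same place held clusters from 2433027 and 2438258, which scored above 11.2% of 215 and 40.6% of 251. The first dpp cluster, by contrast, scored above 85.7% of 321 clusters of its width in replicate 1 and above 78.1% of 210 in replicate 2. The replicate 1 dpp clusters from 2428583 and 2456831 stood at 78.1% and 70.0%, and the median of the 6 dpp members was 55.3% in replicate 1, against 23.6% for the 4 of replicate 2. The wg cluster from 7233386 to 7241216 of replicate 2 scored above 0.746% of 134 clusters of its width. At N the lowest and highest values were 7.63% and 57.3% in replicate 1, and 15.1% and 65.8% in replicate 2. The median at N was 33.9% in replicate 1, below that of dpp, and 28.8% in replicate 2, above it. Of the N members, 5 of 6 in replicate 1 and 3 of 4 in replicate 2 stood below 50%, against 3 of 6 and 3 of 4 at dpp. Over the 3 loci, 4 of 15 replicate 1 members and 5 of 10 replicate 2 members stood below 25%. By the way this percentile is built, roughly 25% of all clusters stand below 25% and roughly 50% below 50%, though the exact shares were not computed. The 4 of 15 is near that share, and the 5 of 10 is above it but rests on few clusters. This comparison was chosen after the values were seen and carries no test.

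**Figure D4:**
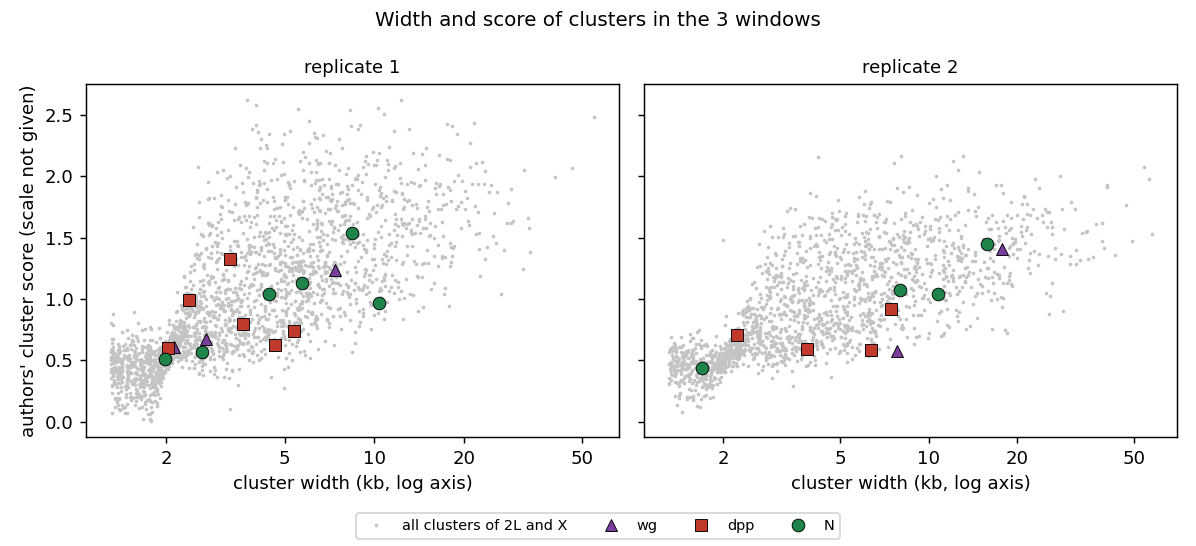
Width (kb, log axis) and the authors' score (scale not given) of all clusters on 2L and X (grey) and of those in the wg (triangles), dpp (squares) and N (circles) windows, for each ChIP replicate. Scores are comparable within a panel only. Ranked among clusters of like width, the highest member was the dpp cluster of 2.40 kb with a score of 0.993 in replicate 1. The lowest was the wg cluster of 7.83 kb with a score of 0.575 in replicate 2.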

How the data were processed

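ChIP DNA of 2 replicates and input DNA of 2 samples were sequenced, and per the submitters' processing notes the reads were aligned with Bowtie 0.12.7. The authors deposited 3 lists of clusters, 1 per ChIP replicate and 1 of the whole series, with a signed score per cluster and, per the file headers, positions of FlyBase release 5. The sources used here do not give the caller, its threshold, the scale of the score or how the inputs were used.

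Clusters named as enriched were used. A window's covered share was the union of its clusters over its length, and its rank the percent of all equal-length windows of the arm, starting at each base, covered less. Values are given per replicate and as mean with SD. Nothing in the labels ties the replicates to separate collections, so an SD here may be technical. The score was only ranked within a list. The steps were tested on simulated data, and 6 of 6 recovered the known answers. The windows and measures were chosen with earlier results of these data known. Alternatives were the median score, joining under 1 kb, the whole-series list, windows shortened by 10 kb at each end, the arm without 1 Mb next to the centromere, windows that do not overlap, 50% reciprocal overlap and each replicate left out. Regions were named by rule: in each window the 3 widest and the highest-scored whole-series cluster, the widest of either replicate, the longest empty stretch of each list and clusters with no base in the other replicate; others served to describe groups. Scripts ran under Python 3.11.15 with scipy 1.17.1, numpy 2.4.6 and pandas 2.3.3, and figures were drawn with matplotlib 3.10.9.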

Additional observations from a re-analysis of the deposited data

How the results depend on the processing

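With clusters below the median score left out, the dpp difference from the rest of 2L reversed to -8.04 percentage points. The N and wg differences kept their sign under every alternative run, and without counting the replicates left out they ranged from 17.2 to 32.9 and from -20.1 to -15.5 points. With a replicate left out they ran from 16.1 to 20.6 at N, 5.51 to 6.51 at dpp and -19.4 to -16.7 at wg, and the ranks from 74.6% to 79.7%, 63.7% to 63.8% and 14.7% to 18.9%, which with 2 replicates is no sign of stability. The median score also moved the rank of dpp to 48.7% and of N to 81.3%, and the Jaccard index to 0.331 at dpp, 0.816 at N and 0.993 at wg. Joining gave a rank of 63.9% and an index of 0.749 at dpp and an index of 0.916 at N. The whole-series list gave differences of 15.0 points at dpp and 17.2 at N, and ranks of 72.8% at dpp, 73.7% at N and 21.2% at wg. Shortened windows gave a dpp difference of 10.2 points, and ranks of 69.0% at dpp and 87.8% at N, and indices of 0.696 at dpp and 0.231 at wg. Without the 1 Mb next to the centromere the ranks were 62.1% at dpp and 13.6% at wg, and windows that do not overlap gave 66.5% at dpp. With the median score the longest empty stretch was 56.1 kb at dpp, 176 kb at wg and 24.9 kb at N. The values with all clusters were 33.1, 162 and 19.2 kb. In the whole-series list the longest empty stretch at wg was 75.4 kb. The cause of these shifts was not tested. With 50% reciprocal overlap, 8 of 10 replicate members had a partner at N, 6 of 10 at dpp and 1 of 5 at wg, against 10, 9 and 4 with a shared base. These were 7 of 15 replicate 1 and 8 of 10 replicate 2 members, where 61.2% and 77.4% of all clusters of those lists had such a partner. No paired analysis was possible because no list of an input sample was among the files used here, so ChIP and input of the same number could not be set against each other; the differences between regions were taken within each ChIP replicate. Depth is unknown, so no limit of detection can be given for the empty stretches.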
